A study of Mus musculus with 4 samples.

Results

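The LIF receptor and STAT3 pathway was followed through 10 genes in mouse embryonic stem cell lines labelled as conditional knockout or knockout for UTX. The genes were the receptor subunits Lifr and Il6st, the kinase Jak1, the transcription factor Stat3, the feedback inhibitor Socs3, and the STAT3 targets Bcl3, Junb, Pim1, Pim3 and Gbx2. All probe sets that the array annotation assigned to only one of these genes were taken, which gave 25 probe sets for the 10 genes, out of 34945 probe sets naming 1 gene and 18193 genes in all. A probe set is a group of short probes for one transcript, and its value is the MAS5 signal, a brightness on a linear scale. All 10 genes lay above the level below which signals were left out as too dim (77.7), through the brightest probe set of each gene.

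The samples were 4 embryonic stem cell lines, 2 labelled UTX conditional knockout (cKO lines 1 and 2) and 2 labelled UTX knockout (KO lines 1 and 2), with 1 Affymetrix Mouse Genome 430 2.0 array per line. UTX, encoded by Kdm6a, is a demethylase of lysine 27 on histone H3, and the series asks which genes it regulates in these cells. All 4 lines were kept on irradiated fibroblast feeders in medium with 15% serum and 1000 u/ml LIF, passaged 2 times on gelatin to clear the feeders, and plated at 1000000 cells per 10 cm dish overnight before RNA was taken. For the genetic background, the Cre used and any descent of a KO line from a cKO line, the labels give nothing. Every line received LIF, so a response to adding or removing it was not measured. The labels name lines and not repeat cultures, so p-values rest in part on the spread between these lines, some of which may be technical. For each gene the limma fit combined that spread with a trend over all genes. The trend carried more weight (5.13 prior against 2 residual degrees of freedom).

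Leukaemia inhibitory factor (LIF) binds LIFR, which pairs with the shared subunit gp130, the product of Il6st. The receptor-bound JAK kinases then phosphorylate STAT3, which enters the nucleus and switches on target genes. SOCS3 is among these targets and closes the loop, because it binds gp130 and the JAKs and dampens the signal. In mouse embryonic stem cells in serum this pathway is what LIF acts through to keep cells self-renewing.

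The arrays were alike in RNA quality, with ratios of 3' to 5' control signal of 0.795 to 0.838 for Gapdh and 1.12 to 1.18 for Actb. The median signal was 76.6 in cKO line 1 and 81.6 in KO line 1, against 64.4 in cKO line 2 and 64.9 in KO line 2. Kdm6a, the targeted gene, read 658 and 415 in the cKO lines against 265 and 198 in the KO lines (each time line 1 first, as throughout), and its log2 fold change of -1.17 missed the threshold (limma adjusted p = 0.0884). That outcome depended on the setting: leaving out cKO line 2 moved it past the threshold (-1.50, adjusted p = 0.0156), as did leaving out the first KO line (-1.38, adjusted p = 0.00985) and having each array centred on the median of all its probe sets (-1.22, adjusted p = 0.00914). It shrank to -0.84 on leaving out cKO line 1 (adjusted p = 0.239) and to -0.57 when all its probe sets were averaged (adjusted p = 0.513). In every fit with 1 array left out, here and below, the lone line of its group is assumed to vary like the other group, so these values show what an array contributes and are no check of stability. Whether the Kdm6a probes lie in the deleted part was not examined here, so this checks the labels only in part. Of 6 embryonic stem cell markers, 4 had positive and 2 negative log2 fold changes, against 51.4% positive over all genes tested. Their median was 0.20 against 0.01. Limma called none of them, where 2.20% of all genes tested were called. An unadjusted p under 0.05 was found for 2 of the 6, against 13.8% of all genes. These were Sox2 (0.37, adjusted p = 0.0994) and Zfp42 (0.51, adjusted p = 0.102), with KO above cKO in both. Nanog was at 0.67 (adjusted p = 0.427) with overlapping groups. The summed signal of the 6 was 61764 and 60528 in cKO and 70176 and 64591 in KO, higher in KO as Socs3 and Lifr were, and the part of this in the results below was not tested. Dppa5a and Pou5f1 were bright on all arrays, with log2 fold changes of 0.02 (adjusted p = 0.959) and -0.06 (adjusted p = 0.847); that of Dppa5a turned negative with quantile normalization and with centring on the median of all probe sets.

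The sequences of 2 promoters are shown because their genes were the ones called in the comparison below. They are windows from 250 bases before to 50 after an annotated transcript start in RefSeq (build GRCm38.p6), where the RefSeq table had 12 windows for the 10 genes. The Socs3 window lies at chr11:117969317-117969616 on the minus strand, and the capitals mark TTCTTAGAA at bases 97 to 105, a match to the STAT motif TTCNNNGAA. The Lifr window lies at chr15:7129322-7129621 on the plus strand and holds no match, so it has no capitals.
Socs3: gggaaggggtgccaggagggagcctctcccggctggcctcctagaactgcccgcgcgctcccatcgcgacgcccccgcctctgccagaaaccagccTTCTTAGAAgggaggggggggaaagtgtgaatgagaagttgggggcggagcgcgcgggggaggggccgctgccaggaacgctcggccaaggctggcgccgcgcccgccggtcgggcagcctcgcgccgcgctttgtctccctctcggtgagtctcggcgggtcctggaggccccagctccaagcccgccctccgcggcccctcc
Lifr: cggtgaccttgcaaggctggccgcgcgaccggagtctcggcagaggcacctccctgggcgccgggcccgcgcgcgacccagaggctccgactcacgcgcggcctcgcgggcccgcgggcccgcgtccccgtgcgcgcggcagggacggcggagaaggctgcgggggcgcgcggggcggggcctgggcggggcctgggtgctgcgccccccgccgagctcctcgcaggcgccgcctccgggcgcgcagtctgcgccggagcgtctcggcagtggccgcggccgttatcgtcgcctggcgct
The motif reads the same on both strands. It occurred in 1 of the 12 windows of the 10 genes, that of Socs3, and in 8.30% of all 32851 windows in the table, so a single match among 12 is close to the share over all genes. Such a match is a run of letters and not a measured binding site. Lifr had a second window, with no match. The Lifr window shown was 81.3% G and C with 53 CG pairs, the Socs3 window 73.3% with 31, and the second Lifr window 53.3% with 4, against medians of 52.7% and 7 over all windows. In 11 of the 12 windows the G and C share lay above that median.

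The receptor gene and the feedback gene stood higher in KO cells, while the kinase and STAT3 itself moved little. Socs3 was 2.20-fold and Lifr 2.08-fold higher in KO than in cKO. Bcl3 and Gbx2 stood 1.65-fold and 1.83-fold higher but missed the threshold, and Il6st, Jak1, Stat3, Junb, Pim1 and Pim3 lay within 1.28-fold of the cKO level. KO and cKO were compared with limma on log2(signal + 4.79) over 10916 genes, with the threshold for a call set at an adjusted p of 0.05. By this rule 2 of the 10 genes were called, both higher, against 2.20% of all genes tested (0.632% higher and 1.57% lower). Both KO values lay above both cKO values for 7 of the 10, against 21.4% of all genes, and none of the 10 had both KO values below, against 21.2%. The log2 fold change was positive for 9 of the 10, against 51.4% of all genes, and the median was 0.24 against 0.01. These counts describe genes that were picked as one pathway with results of these data known, and no test was made of the list.

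**Figure D1:**
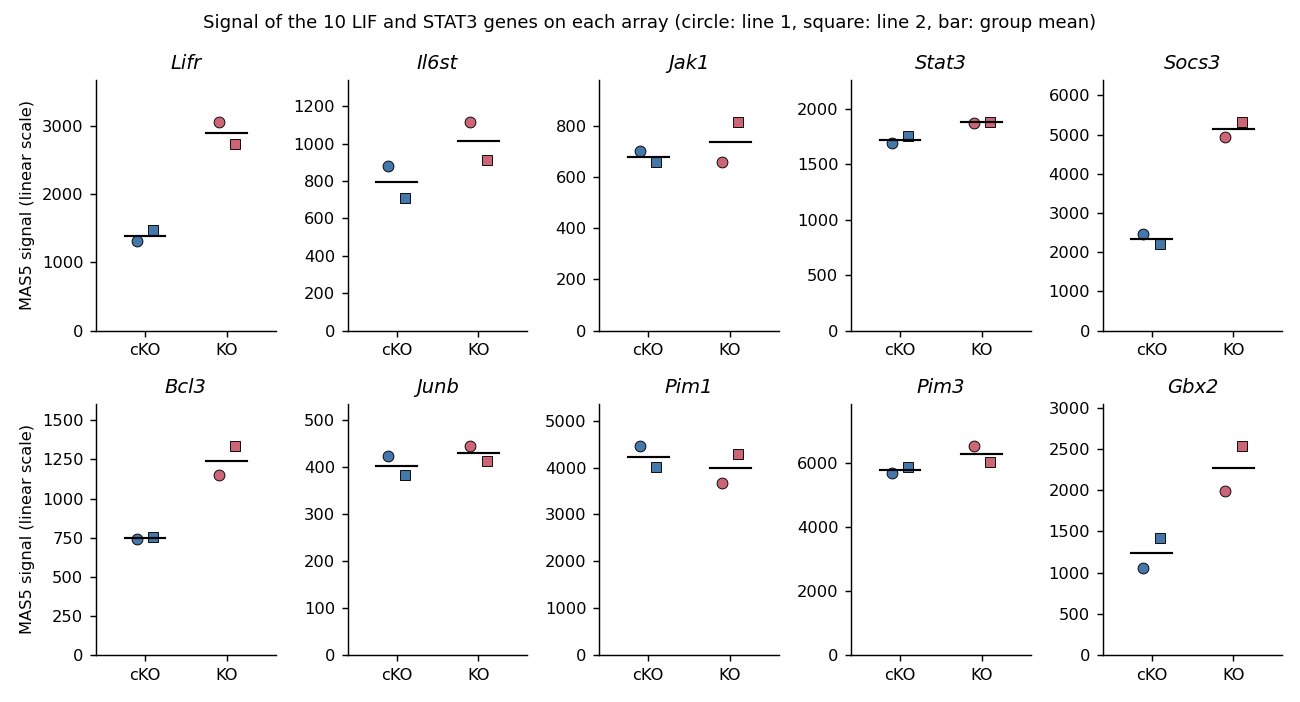
MAS5 signal (vertical axis, linear, from 0, with its own scale in each panel) of the brightest probe set of each gene, with blue for cKO, red for KO, circles for line 1, squares for line 2 and a bar at each group mean (n = 2). The KO points of Socs3, at 4948 and 5335, and of Lifr, at 3061 and 2730, sit far above the cKO points, while those of Jak1, Junb and Pim1 mix with them.

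Lifr, whose product is the receptor subunit that binds LIF, read 1318 and 1467 in the cKO lines against 3061 and 2730 in the KO lines. Both KO lines were high and the groups did not overlap. The mean of 1392 ± 105 in cKO compared with 2896 ± 234 in KO (SD, n = 2 lines a group), and the log2 fold change was 1.05 (SE 0.15, 95% interval 0.71 to 1.40, limma adjusted p = 0.0209). Its other 2 probe sets were dim, with means of 63.2 and 48.3 in cKO. One read 48.6 and 48.1 in cKO and 73.0 and 125 in KO (log2 fold change 0.92), and the other 54.8, 71.6, 81.5 and 74.5 (0.29). In both, the KO values again lay above the cKO values, but at signals near background and with no test. With the mean of all 3 probe sets the change was 0.75 (adjusted p = 0.154), and with each array centred on the median of all its probe sets it was 1.01 (adjusted p = 0.0602), so either choice ended the call. So did a fit without the variance trend (adjusted p = 0.0715).

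Il6st, whose product gp130 is shared by the receptors of the interleukin-6 family, read 881 and 707 against 1119 and 914. The KO lines were above the cKO lines, but the nearest values, 914 and 881, lay closer together than the lines of either group. The log2 fold change was 0.36 (SE 0.19, 95% interval -0.09 to 0.80, adjusted p = 0.494). A second probe set gave 184 and 146 against 268 and 244, a log2 fold change of 0.63 (adjusted p = 0.354 when every probe set was tested on its own). Another overlapped between groups (0.39), and the last, below the filter, was at -0.17.

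Jak1, the main kinase that gp130 brings into the receptor complex, read 700 and 658 on the cKO arrays against 659 and 816. The groups overlapped, with KO line 1 level with cKO line 2. The log2 fold change was 0.11 (95% interval -0.30 to 0.52, adjusted p = 0.861), and without KO line 2 it was -0.04 (adjusted p = 0.974). A second bright probe set read 679 and 451 against 631 and 513 (0.04). The remaining one, dim and below the filter, read 32.0 and 12.3 against 32.6 and 36.9 (0.65). With the mean of all its probe sets Jak1 was at 0.27 (limma adjusted p = 0.780).

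Stat3 read 1689 and 1754 in cKO and 1875 and 1887 in KO on its brightest probe set. The KO lines were higher by a small step, and the difference did not pass (log2 fold change 0.13, 95% interval -0.19 to 0.45, adjusted p = 0.779). The interval leaves room for a rise of 0.45 but not for one of the size seen for Lifr or Socs3. The probe sets of Stat3 did not move alike. One read 640 and 573 against 815 and 727 (0.34), another 142 and 119 against 155 and 133 (0.14), and a dim one 107 and 92.4 against 65.8 and 75.9 (-0.47), none of them called. The mean over the 4 was 0.04 (adjusted p = 0.965). Phosphorylation, the step that activates the protein, is not seen on an expression array.

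Socs3 gave the smallest p of the 10 genes. The brightest of its probe sets gave 2455 and 2211 for cKO against 4948 and 5335 for KO, so both KO lines stood about level and well apart from both cKO lines. The log2 fold change was 1.14 (SE 0.13, 95% interval 0.84 to 1.44, limma adjusted p = 0.0116). With any 1 array left out it ran from 1.06 to 1.21, with adjusted p from 0.00161 to 0.00673. Without the variance trend in limma the adjusted p was 0.0628, which ended the call. This probe set carries the suffix that Affymetrix gives where some probes also match other transcripts, so its size alone is uncertain. The probe set without that suffix read 1030 and 1227 in cKO and 1779 and 1848 in KO (0.69, adjusted p = 0.118 over all probe sets), and the remaining one 1317 and 1275 against 2165 and 2444 (0.83, adjusted p = 0.0516). All 3 had both KO values above both cKO values, and their mean was 0.88 (adjusted p = 0.0281).

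Bcl3, an atypical I-kappa-B protein that binds NF-kappa-B subunits in the nucleus, read 743 and 752 in cKO and 1149 and 1337 in KO. The cKO lines were almost equal and both KO lines lay above them. Its log2 fold change was 0.73 (SE 0.16, 95% interval 0.35 to 1.10, adjusted p = 0.0770), short of the threshold. With 1 array left out the adjusted p ran from 0.0568 to 0.230.

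Gbx2, a homeobox transcription factor that can sustain self-renewal downstream of STAT3, read 1058 and 1421 in cKO and 1995 and 2537 in KO. Line 2 read above line 1 in both groups, and the groups did not overlap. Its log2 fold change was 0.87 (SE 0.20, 95% interval 0.40 to 1.34, adjusted p = 0.0875). It passed when cKO line 2 was left out (1.08, adjusted p = 0.0267) or KO line 1 was (1.05, adjusted p = 0.0170). Leaving out cKO line 1 gave 0.66 (adjusted p = 0.213), which did not pass, and leaving out KO line 2 gave 0.70 (adjusted p = 0.169).

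The other targets stayed near the cKO level. Junb, an AP-1 transcription factor, read 423 and 383 in cKO and 445 and 413 in KO, with overlapping groups (log2 fold change 0.09, 95% interval -0.32 to 0.49, adjusted p = 0.893). Pim1, a serine/threonine kinase that supports survival, read 4465 and 4011 against 3674 and 4297, again overlapping. It was the one gene of the 10 with a negative value (-0.09, 95% interval -0.41 to 0.23, adjusted p = 0.850), and this became 0.02 without KO line 1. Its second probe set gave -0.08. Pim3, a close relative of Pim1, read 5682 and 5866 against 6536 and 6034, with KO slightly above (0.12, 95% interval -0.13 to 0.37, adjusted p = 0.716). A second Pim3 probe set overlapped between groups (0.25), as did a dim one below the filter (0.58). With the mean of all its probe sets Pim3 was at 0.32 (limma adjusted p = 0.633). The brightest Pim3 probe set carries the suffix described for Socs3. The intervals given allow shifts of up to 0.49 for Junb and 0.37 for Pim3.

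**Figure D2:**
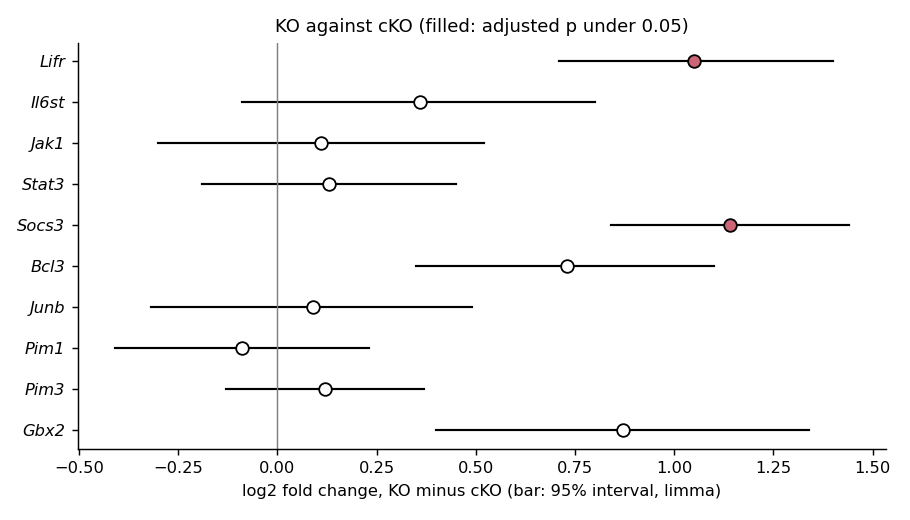
Log2 fold change of KO minus cKO (horizontal axis) for each gene, with the 95% interval from limma as a bar and filled points for adjusted p under 0.05. Lifr (1.05) and Socs3 (1.14) are filled, the intervals of Bcl3 and Gbx2 also lie above 0 before adjustment, and the other 6 intervals include 0.

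Across probe sets, 20 of the 25 lay above the filter, and 2 of these were called when each probe set was tested on its own, both higher, against 1.27% of 18797 probe sets (0.287% higher). Both KO values lay above both cKO values for 11 of these 20 and below for 1, the dim Stat3 probe set, where the shares among all tested probe sets were 21.1% above and 19.7% below. Over all 25 it was 14 above and 1 below. The shares over all probe sets were taken only above the filter, so they do not apply to this count. Of the 5 probe sets below the filter, 2 belong to Lifr and 1 each to Il6st, Jak1 and Pim3.

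**Figure D3:**
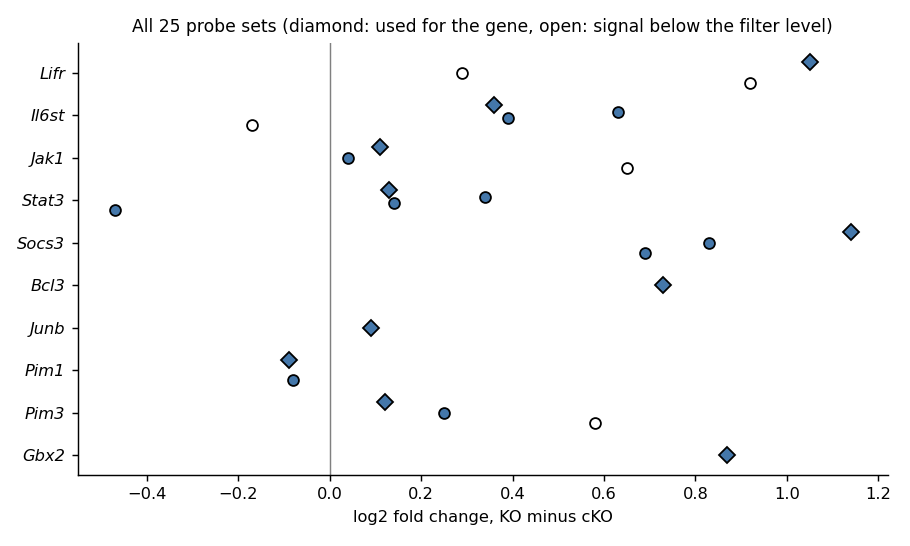
Log2 fold change of KO minus cKO (horizontal axis) for all 25 probe sets by gene, with diamonds for the probe set that stood for the gene and open symbols for probe sets below the filter level of 77.7. The 3 Socs3 probe sets lie between 0.69 and 1.14, the 2 of Pim1 at -0.09 and -0.08, and those of Stat3 spread from -0.47 to 0.34.

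The rest of the pathway was read from 5 further lists with 63 genes, of which 56 had a probe set naming only that gene, 45 lay above the filter and 7 were not analysed here. Of the 45, 1 was called higher (Tyk2) and 1 lower (Pim2), or 4.44% against 2.20% of all genes tested, and the median log2 fold change was -0.07 against 0.01. Both KO values lay above both cKO values for 11 of them, a share of 24.4% against 21.4% of all genes. The lean towards higher values among the 10 genes was thus not seen in this wider list; the difference between the lists was not tested.

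Most ligands and alternative receptors of the interleukin-6 family were dim, with 7 of 10 below the filter. None of the other 3 was called, where 2.20% of all genes tested were. Lif itself read 144 and 84.5 in the cKO lines against 127 and 73.2 (log2 fold change -0.18, adjusted p = 0.904). Its value turned to 0.18 without cKO line 1 and to 0.19 without KO line 2. Cntfr, the receptor subunit for ciliary neurotrophic factor, read 308 and 311 against 175 and 146 (-0.93, adjusted p = 0.0874), with both KO lines below both cKO lines. Without KO line 1 it passed (-1.06, adjusted p = 0.0469), while leaving out any of the other 3 arrays gave an adjusted p of 0.178 to 0.278.

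Among the other JAKs and STATs, 5 of 8 lay above the filter. Tyk2, a JAK family kinase that can also bind gp130, read 405 and 413 in cKO and 777 and 871 in KO. Both KO lines were close to 2.00-fold above the cKO lines (log2 fold change 1.00, SE 0.16, adjusted p = 0.0310). The call sat near the threshold. It ended when cKO line 1 was left out (0.99, adjusted p = 0.0564), and equally for cKO line 2 (1.02, adjusted p = 0.0523) and for KO line 2 (0.92, adjusted p = 0.0576). A second Tyk2 probe set was dim, and the mean of both gave 0.61 (adjusted p = 0.423). Jak2, the other JAK used by gp130, was at -0.60 (adjusted p = 0.466) with 238 and 160 in cKO and 151 and 106 in KO.

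All 14 of the other negative regulators (SOCS, CISH, PIAS and phosphatase genes) lay above the filter, with log2 fold changes from -0.41 to 0.26. None was called, where 2.20% of all genes tested were, so no call among 14 is near that share. Limma gave 1 of the 14 an unadjusted p under 0.05 (13.8% of all genes tested), Socs2, a suppressor best known from growth hormone signalling, which read 4856 and 4670 in cKO and 5615 and 5774 in KO (0.26, adjusted p = 0.350). Socs6 was at -0.41 (adjusted p = 0.462), or 0.20 with the mean of its probe sets. Socs3 was the called member of its family here, but the difference between Socs3 and its relatives was not tested.

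In the branch that runs from gp130 through the phosphatase SHP2 to ERK and PI3K, 10 of 11 genes lay above the filter. None of them was called in limma, where 2.20% of all genes tested were. The 2 of smallest p were Sos1, a Ras exchange factor, at 0.38 (unadjusted p = 0.0430, adjusted p = 0.333), and Shc1, an adaptor, at -0.32 (adjusted p = 0.429). Sos1 was the one gene of this branch at an unadjusted p under 0.05, against 13.8% of all genes tested.

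The 13 other STAT3 targets went both ways, 5 with positive and 8 with negative log2 fold changes, against 51.4% positive over all genes tested. Their median was -0.25 against 0.01. In limma 6 of the 13 had an unadjusted p under 0.05, against 13.8% of all genes. Both KO values lay above both cKO values for 4 and below for 6, against 21.4% and 21.2%. Pim2, the X-linked relative of Pim1 and Pim3, read 2481 and 3363 in the cKO lines against 675 and 1037, and its log2 fold change was -1.78 (SE 0.24, adjusted p = 0.02). Both KO lines were far below both cKO lines, while Pim1 and Pim3 lay at -0.09 and 0.12. With 1 array left out the value for Pim2 ran from -2.09 to -1.47. Without the variance trend the adjusted p was 0.0739, which ended the call. The remaining genes of this list did not pass, and those named next were chosen after their values were seen. Tfcp2l1 and Klf4, transcription factors through which STAT3 maintains the naive state, were at 1.24 (adjusted p = 0.0889) and 0.89 (adjusted p = 0.130), with signals of 2141 and 1169 against 4342 and 3239 for Tfcp2l1 and of 4890 and 2824 against 6934 and 6895 for Klf4. For both, cKO line 2 was the low array. Leaving out cKO line 1 gave 1.68 for Tfcp2l1 and 1.29 for Klf4, and leaving out that low array gave 0.81 and 0.50. The values were 1.03 and 0.89 without KO line 1, and 1.45 and 0.90 without KO line 2. With each array centred on the median of all its probe sets, Tfcp2l1 passed in limma (1.19, adjusted p = 0.0257) and Klf4 did not (0.85, adjusted p = 0.176). Both passed in limma with the line number as a block (adjusted p = 0.00421 for Tfcp2l1 and 0.0293 for Klf4), a fit described below. Sgk1, a kinase, was at 0.54 (adjusted p = 0.0532). Cebpd, a transcription factor of the acute phase response, was at -1.44 (adjusted p = 0.0606), and Zfp36, an RNA-binding protein that shortens the life of cytokine transcripts, at -0.59 (adjusted p = 0.177). Cebpd passed when cKO line 1 was left out (-1.73, adjusted p = 0.00871), and also for KO line 1 (-1.10, adjusted p = 0.0283) and for KO line 2 (-1.77, adjusted p = 0.00181). It did not pass on leaving out cKO line 2 (-1.15, adjusted p = 0.109), and the mean of its probe sets was at -0.58 (adjusted p = 0.524).

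**Figure D4:**
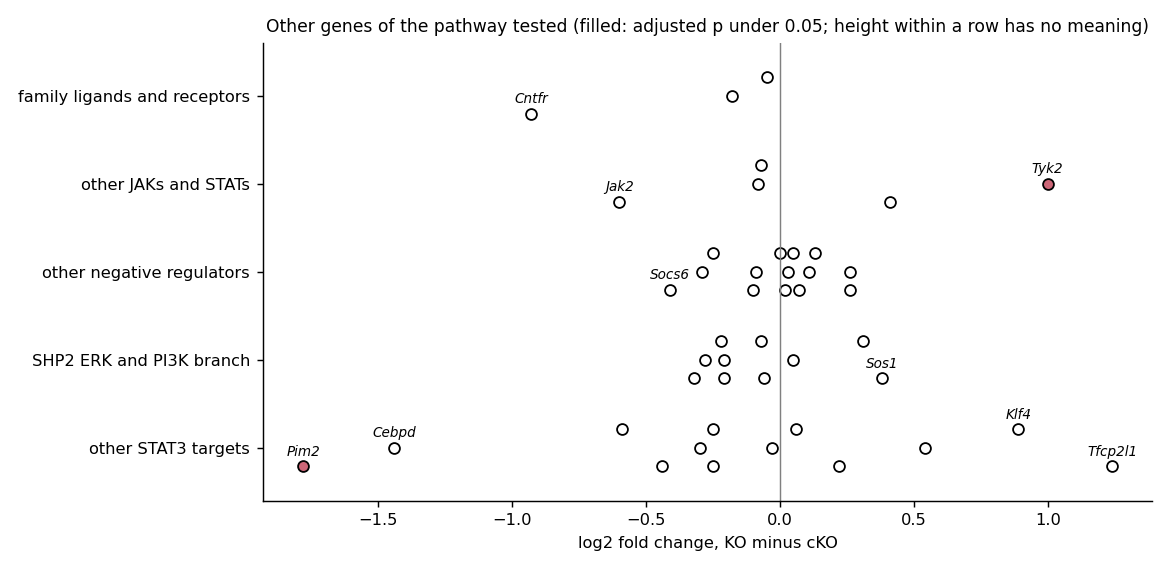
Log2 fold change of KO minus cKO (horizontal axis) for the 45 other pathway genes above the filter, in rows by list, with filled points for adjusted p under 0.05. Tyk2 (1.00) and Pim2 (-1.78) are the filled points, and the negative regulators all lie between -0.41 and 0.26.

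Fibroblasts, the feeder cells, also express the LIF pathway, so their markers were read beside these results. Of 14 fibroblast markers 13 had a probe set and 10 were tested, 9 of them negative and 2 called lower in KO, with a median of -1.0, where 1.57% of all genes tested were called lower and 51.4% were positive. Col5a1 (-1.43, adjusted p = 0.0295) and Thy1 (-1.20, adjusted p = 0.0483) were the called ones. Both calls ended in limma without a filter (adjusted p = 0.0739 for Col5a1 and 0.112 for Thy1). They ended too with the mean of probe sets (0.0574 and 0.0552) and without the variance trend (0.0628 and 0.0824). The call of Col5a1 ended when cKO line 1 was left out (adjusted p = 0.0938). That of Thy1 ended for cKO line 2 (adjusted p = 0.163) and for KO line 2 (adjusted p = 0.0574). The summed signal of the 13 was 11518 and 9680 in cKO and 9660 and 8928 in KO, most of it Fn1 (0.06, adjusted p = 0.890), and without Fn1 it was 3916, 2579, 1647 and 1655. Col1a1 read 618 and 246 in cKO and 146 and 171 in KO, Col3a1 299 and 145 against 67.8 and 67.0, and Col1a2 1068 and 644 against 461 and 548. None of the 13 was at 0 on any array, but without detection calls a low signal does not show that a marker was expressed. Col3a1 in KO lay below the filter level of 77.7. The summed markers were thus highest in cKO line 1 and lower in KO, in the direction opposite to Socs3 and Lifr and the same as Pim2 and, with changes that did not pass, Cebpd, Cntfr and Zfp36. Their part in the results was not tested. Without cKO line 1 the log2 fold change was 1.21 for Socs3 (adjusted p = 0.00342) and 0.98 for Lifr (adjusted p = 0.0290), with cKO line 2 as the lone cKO array, whose marker sum without Fn1 still stood above both KO lines. In a bulk sample fewer cells of a type and less RNA per cell cannot be told apart.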

How the data were processed

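Per the submitters' processing notes, the authors made the values with MAS5; no version or setting is named in those notes. The deposited intensity values are 1 linear signal per probe set and array, with a mean of 500.0 on every array after 2% was trimmed at each end. Detection calls were not used. Signals were not normalized further. Probe sets naming 1 gene in the platform annotation were used, 34741 of them with symbols updated through RefSeq (GRCm38.p6). The probe set of highest mean log2 signal stood for a gene, and the lower 40% of genes (below 77.7) were left out. Fold changes are on the log2(signal + 4.79) scale, 4.79 being the 10th percentile of all values, which understates changes of dim genes. Limma 3.58.1 in R 4.3.3 (lmFit, eBayes with a variance trend) compared KO with cKO, with 2 residual and 5.13 prior degrees of freedom and Benjamini-Hochberg adjustment. The fit was tried on simulated data with noise drawn independently for each array. Those data held nothing shared by lines of equal number, so they cannot show how the fit behaves where lines share something. An exact permutation of 2 against 2 arrays cannot go below p = 0.333. Summaries used Python 3.11.15.

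The genes and lists were chosen with earlier results of these data known. Named are the 10 genes and Kdm6a, the called genes of each further list or its 2 of smallest p, and up to 2 brightest markers per list with Col1a1 and Col3a1. Jak2, Nanog, Fos, Cish and the further STAT3 targets other than Pim2 were named outside this rule, with their values known. Alternatives were the pseudocount, the filter, quantile normalization, centring, the use of probe sets, the variance trend, the threshold, the line number as a block, and each array left out.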

Additional observations from a re-analysis of the deposited data

How the results depend on the processing

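Each of the 10 genes kept its direction under every alternative that gives 1 value per gene, except Jak1 (-0.04 without KO line 2, up to 0.26 with 1 other array left out) and Pim1 (0.02 without KO line 1, down to -0.20). Of the 10 genes, 2 were called in the main analysis, 4 at an adjusted p under 0.1, 1 with the mean of probe sets, 1 with centring on the median of all probe sets (added after the data were seen) and 2 to 3 with 1 array left out. Without the variance trend limma called 0 of the 10 (4 at an unadjusted p under 0.05; Socs3 adjusted p = 0.0628, Lifr adjusted p = 0.0715). Their median was 0.31 with the mean of probe sets, 0.30 over single probe sets and 0.18 (without cKO line 2) to 0.34 (without cKO line 1 or KO line 2) with 1 array left out. Of the other pathway genes 1 was called without a filter, 1 with the mean of probe sets, 0 without the trend in limma (9 at an unadjusted p under 0.05) and 1 (without cKO line 2) to 6 (without KO line 1) with 1 array left out. Pim2 lost its call without the trend (adjusted p = 0.0739), Kdm6a passed with the line number as a block (adjusted p = 0.00811), and Tyk2 lost its call also without a filter (adjusted p = 0.0534) and with centring on all probe sets (0.95, adjusted p = 0.0558).

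Over all genes 240 were called, 428 at an adjusted p under 0.1, 147 without a filter, 154 with the lower 60% left out, 126 with the mean of probe sets, 28 without the trend and 228 to 432 (without KO line 1) with 1 array left out. Centring on all probe sets put 81.1% of calls lower in KO, against 71.2%. Among other named genes the sign turned for Lif (0.18 without cKO line 1, 0.19 without KO line 2, -0.56 without KO line 1), Socs6 (0.20 with the mean of probe sets), Fn1 (-0.01 without KO line 1, up to 0.13) and Dppa5a (-0.02 with quantile normalization, -0.03 with centring on all probe sets, -0.07 without KO line 1, up to 0.11). The cause was not tested.

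The labels number the lines but do not pair them. Adding the line number to the limma fit as a block, 1048 genes were called, 4 of the 10 genes (Socs3, Lifr, Bcl3 at adjusted p = 0.0130 and Gbx2 at adjusted p = 0.00479) and 8 other pathway genes. These 8 were Cebpd, Cntfr, Klf4, Pim2, Sgk1, Tfcp2l1, Tyk2 and Zfp36, where 9.60% of all genes tested were called. Over the genes tested, the difference between lines 1 and 2 in cKO correlated with that in KO at r = 0.52, with 2 numbers and no label behind it. With 2 lines per group, differences under about the interval widths given could not be detected.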

Other observations

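Some genes of the pathway followed the line number more than the genotype, and were chosen here after their values were seen. Fos, an immediate early gene and AP-1 subunit, read 338 and 132 on the cKO arrays and 306 and 102 on the KO arrays (line 1 first), so that line 1 stood above line 2 by 1.33 (log2) in cKO and by 1.54 in KO. The gene for LIF itself went the same way, by 0.73 and 0.76, though at signals near the filter level. Cish, a SOCS family member induced by STAT5, read 441 and 331 in cKO and 484 and 351 in KO, or 0.41 and 0.46. For these 3 genes the gap between lines of one group was larger than the KO minus cKO difference within lines of either number, which ran from -0.35 to 0.13. Of the 10 genes followed in the report, 2 had line 1 above line 2 in both groups and 3 the opposite. The median signal of the arrays was also higher for line 1 (76.6 in cKO, 81.6 in KO) than for line 2 (64.4 in cKO, 64.9 in KO). Its part in the gaps of Fos, Lif and Cish, or in the correlation given above, was not tested. No label says what lines of one number share.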
